A study of Mus musculus with 19 samples.

Results

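Blastoids of day 3 were compared with blastoids of day 2, across every gene of the count table. The comparison used 6 of the 19 libraries of the series, 3 on each day, chosen by the day in their labels. A blastoid is an aggregate of stem cells cultured so that it comes to resemble the preimplantation embryo, in which an inner cell mass is enclosed by an epithelium, the trophectoderm. All blastoids of the series started from TT2 mouse embryonic stem cells, a line grown over inactivated embryonic fibroblast feeders, and the labels list 6 h of 20 nM pladienolide B (PlaB) for every blastoid library. PlaB inhibits the SF3B complex of the spliceosome, and the study is titled as a way to obtain totipotent blastomere-like cells. The day 3 libraries and the day 2 libraries therefore share the line, the drug and its dose, and differ by 1 day of blastoid culture. Day 1, 4 and 5 libraries, 3 each, supplied the neighbouring time points and part of the estimate of spread. The labels do not say whether the 3 libraries of a day are separate cultures, so the tests measure the spread between these libraries, which may be technical. The number of blastoids in a library is not given in the sources used here.

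Polyadenylated RNA was converted to libraries with the Smart-seq2 protocol, which makes full-length cDNA from small inputs, and the values are counts of reads per gene. In bulk libraries of this kind, fewer cells of a type and less RNA per cell cannot be told apart. Mouse embryonic stem cells are held in a naive state by a network around Pou5f1, Sox2, Nanog and the Klf and Esrrb factors. Before they respond to lineage signals they pass a formative state, marked by Otx2 and Zic factors, and they enter it under FGF and ERK signalling. Trophectoderm forms under Cdx2, Gata3 and Tfap2c, builds keratin filaments of Krt8 and Krt18, seals itself with tight junctions and pumps fluid with the sodium pump.

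The libraries held 4231669 to 6859777 counts on day 3 and 5889140 to 7291420 counts on day 2. Day 3 replicate 3 stood apart. Mitochondrially encoded genes took 13.5% of its counts (95% Wilson interval 13.46% to 13.52%, which covers counting error only), against 5.50% and 4.71% in day 3 replicates 1 and 2 and 5.91%, 4.48% and 4.01% in the day 2 libraries. The share averaged 7.90% ± 4.86 on day 3 and 4.80% ± 0.99 on day 2 (SD, n = 3 each), and an exact two-sided permutation test gave p = 0.4 where the smallest p it allows is 0.1. A second measure separated the days without overlap. The deviation of GC-rich genes minus that of GC-poor genes (median log2 deviation from the mean over all blastoid libraries, transcripts of at least 54% GC against those under 42%) was −0.56, −0.70 and −1.34 in the day 3 libraries and 0.037, 0.026 and 0.118 in the day 2 libraries (exact permutation p = 0.1, the smallest possible). A gene whose day 3 against day 2 call ended without day 3 replicate 3, or with the GC trend of each library removed, is therefore given with that value below.

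**Figure D1:**
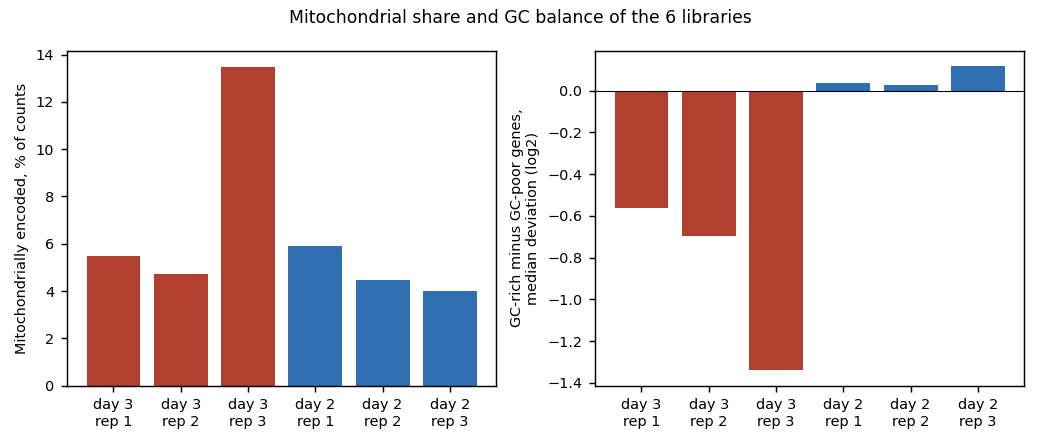
Left, mitochondrially encoded genes as a percentage of all counts in each of the 6 libraries; right, the median log2 deviation of GC-rich genes minus that of GC-poor genes in the same libraries (bars, 1 library each; day 3 in red, day 2 in blue). Day 3 replicate 3 has 13.5% mitochondrial counts and a GC balance of −1.34, and all 3 day 3 libraries lie below 0 in the right panel.

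Of 15121 genes tested, 1821 were higher on day 3 (12%) and 2045 were lower (13.5%) at an adjusted p under 0.05 (edgeR's quasi-likelihood test over all 15 blastoid libraries, Benjamini-Hochberg adjustment over all genes tested), and 25.6% were called in either direction. Among them 1058 were at least 2-fold higher and 1538 at least 2-fold lower. The median log2 fold change of all genes was 0.00099, where log2 fold changes are day 3 minus day 2. All 3 day 3 libraries lay above all 3 day 2 libraries for 20.5% of genes and below them for 21.3%. After removal of the GC trend there were 1621 higher (10.7%) and 1589 lower calls (10.5%), and 64.1% of the original calls were kept with none turned round. Without day 3 replicate 3, 1069 genes were higher (6.8%) and 1426 lower (9.07%) of 15729 tested. Without day 2 replicate 3 the counts were 739 and 1144, and without day 2 replicate 2 they were 932 and 1325. Calls that stood in each of 9 other settings (GC trend removed, GC and length trends removed, DESeq2, and each of the 6 libraries left out in turn) numbered 470 higher and 785 lower genes; with GC and length trends removed alone the shares were 9.44% higher and 9.72% lower. These are called held below. Counts over gene lists moved with the libraries as well, so they are also given without day 3 replicate 3 and without day 2 replicate 3, higher first. They are to be read beside the counts over all genes in the same fit, which also fell. Without day 2 replicate 2 most lists were within 2 calls of the counts without day 2 replicate 3.

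Genes with GC-rich transcripts were lower in median and genes with GC-poor transcripts higher. The median log2 fold change was 0.56 for genes whose longest transcript is under 42% GC, −0.003 for those of 46% to 50% and −0.58 for those of 54% or more. Among the GC-poor genes 27.6% were higher and 1.24% lower, and among the GC-rich genes 3.30% were higher and 27.3% lower. Across 15016 genes with a known transcript, Spearman's rho between GC and the log2 fold change was −0.42 and that with length was 0.24; genes share their libraries, so these are descriptions. Length classes gave medians of 0.009 under 1 kb, −0.51 from 1 to 2 kb and 0.43 from 8 kb. Without day 3 replicate 3 the GC classes kept their order, as the plot of medians by GC content shows. What part of the gene-level changes follows this composition was not tested beyond the values with the trend removed.

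**Figure D2:**
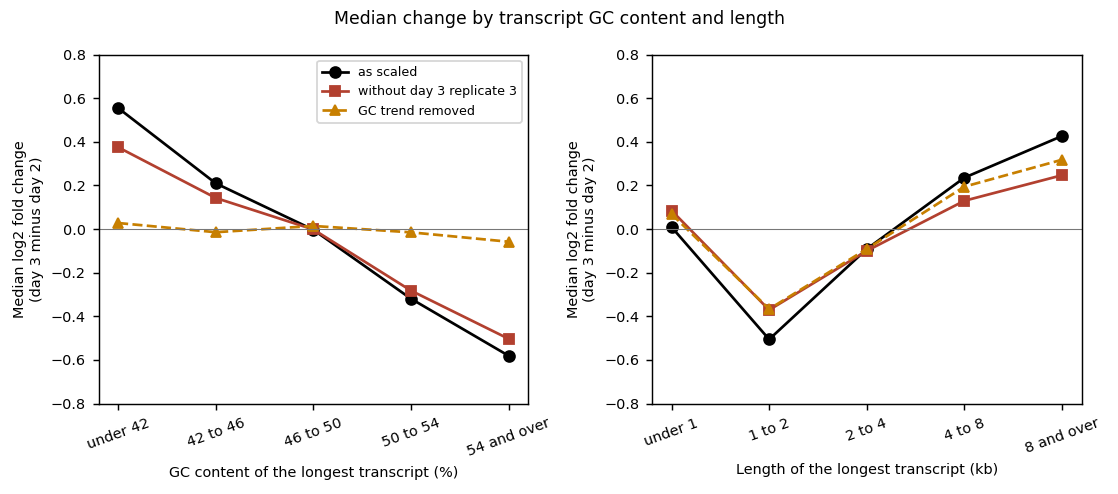
Median log2 fold change (day 3 minus day 2) of genes grouped by the GC content (left) and the length (right) of their longest transcript: all libraries (black circles), day 3 replicate 3 left out (red squares) and GC trend removed (orange triangles). The median falls from 0.56 to −0.58 over the GC classes as scaled and lies near 0 in every GC class once the trend is removed.

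A set of formative regulators of the epiblast rose. Of 16 tested genes of formative and primed pluripotency, 6 were higher on day 3 and 0 lower, against 12% and 13.5% of all genes, and the median log2 fold change of the 16 was 0.42 (8 and 0 without day 3 replicate 3, 6 and 0 without day 2 replicate 3). All 6 calls held, among them Otx2, Etv5, Lef1, Zic5 and Pim2. Otx2, the homeobox factor that directs cells out of the naive state, had 18.8, 21.5 and 25.8 CPM (TMM-scaled library-size units, the counts of a gene per 1e6 counts) on day 3, against 5.88, 8.15 and 2.53 CPM on day 2. Every day 3 library was more than 2-fold above every day 2 library. The log2 fold change was 1.99 (SE 0.34, adjusted p = 0.000887). Zic5, a zinc finger factor of the early neural plate and epiblast, had 63.2, 78.3 and 168 CPM on day 3 and 31.9, 24.9 and 18.4 CPM on day 2 (log2 fold change 2.04, SE 0.34, adjusted p = 0.000819). The highest value was that of day 3 replicate 3, and the call stood without it (adjusted p = 0.00129). Dnmt3b, a de novo DNA methyltransferase of the primed state, averaged 135 ± 38.7 CPM on day 3 and 101 ± 8.62 CPM on day 2 and did not pass (log2 fold change 0.42, adjusted p = 0.139). It passed with the GC trend removed (0.81, adjusted p = 0.00391) and without day 3 replicate 3 (0.64, adjusted p = 0.0162).

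Naive and general pluripotency genes were called in both directions. Of 39 tested, 6 were higher and 9 lower, against 12% and 13.5% of all genes, with a median log2 fold change of −0.14, and 2 higher (Sox2, Fgf4) and 6 lower calls held. The counts were 5 and 7 without day 3 replicate 3 and 3 and 6 without day 2 replicate 3. Sox2, shared by the naive, formative and neural programmes, had 117, 156 and 277 CPM on day 3 and 93.6, 55.1 and 46.9 CPM on day 2 (1.49, SE 0.32, adjusted p = 0.00279). Pou5f1 had 3.90, 4.08 and 3.02 CPM on day 3 and 11.8, 19.2 and 16.4 CPM on day 2 (−2.09, SE 0.33, adjusted p = 0.000557). Its exons overlap those of Gm19553 on the opposite strand, and no source used here gives the strand setting of the counting, so the level at this locus is uncertain. Utf1, a chromatin factor of undifferentiated cells, had 13.7, 12.4 and 4.89 CPM on day 3 and 46.7, 33.3 and 39.0 CPM on day 2, with no overlap (−1.91, SE 0.34, adjusted p = 0.000995). Mybl2, a cell-cycle transcription factor, averaged 47.3 ± 8.58 CPM on day 3 and 121 ± 7.75 CPM on day 2 (−1.35, SE 0.28, adjusted p = 0.00238).

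Nanog, Klf4, Esrrb and Zfp42, factors of the naive network, were not called. Nanog had 162, 165 and 138 CPM on day 3 and 233, 213 and 244 CPM on day 2; the days did not overlap, but the adjusted p was 0.0614 (log2 fold change −0.57) and became 0.0300 with the GC trend removed. Klf4 averaged 119.5 ± 42.6 CPM on day 3 and 68.2 ± 26.4 CPM on day 2 (0.81, adjusted p = 0.0515), and Esrrb 70.4 ± 4.88 CPM on day 3 and 61.2 ± 18.9 CPM on day 2 (0.20, adjusted p = 0.566); with the GC trend removed their adjusted p was 0.0141 and 0.0274. Zfp42 averaged 419 ± 85.4 CPM on day 3 and 550.0 ± 40.2 CPM on day 2 (−0.39, adjusted p = 0.229). Summed over Nanog, Sox2, Zfp42, Esrrb and Tdgf1, the pluripotent markers ran from 1264 to 1323 CPM on day 3 and from 1302 to 1568 CPM on day 2, so the ranges overlapped.

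An FGF ligand and several feedback inhibitors of its pathway rose. Of 21 tested genes of FGF and ERK feedback, 6 were higher and 0 lower, against 12% and 13.5% of all genes. The median was 0.47, and the counts were 5 and 0 when day 3 replicate 3 or day 2 replicate 3 alone was left out. Fgf4, the ligand that pluripotent cells secrete, had 68.0, 63.0 and 97.0 CPM on day 3 and 38.7, 35.5 and 32.9 CPM on day 2 (log2 fold change 1.09, SE 0.24, adjusted p = 0.0038). Among the inhibitors that ERK activity induces, Spry2 had 39.3, 50.5 and 111 CPM on day 3 and 26.4, 19.8 and 17.7 CPM on day 2 (1.65, SE 0.35, adjusted p = 0.00295), and Spred2 had 22.4, 30.1 and 25.4 CPM on day 3 and 13.6, 10.8 and 7.74 CPM on day 2 (1.28, SE 0.25, adjusted p = 0.00168). No day 3 library of these genes fell within the day 2 range. Spred1 was higher by 0.83 (SE 0.18, adjusted p = 0.00361), a call lost with the GC trend removed (adjusted p = 0.0674).

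Among Wnt target genes, of 16 tested, 5 were higher and 1 lower, against 12% and 13.5% of all genes. The median was 0.37, and the counts were 4 and 1 when either of the same libraries was left out. Lef1, Tcf7, T and Tnfrsf19 held among the higher and Ccnd1 as the lower. Lef1 and Tcf7 are themselves DNA-binding partners of beta-catenin. Lef1 had 25.3, 29.0 and 24.4 CPM on day 3 and 11.6, 9.69 and 8.18 CPM on day 2 (1.42, SE 0.27, adjusted p = 0.00155). Tcf7 had 32.7, 38.7 and 31.6 CPM on day 3 and 17.8, 13.5 and 13.2 CPM on day 2 (1.21, SE 0.23, adjusted p = 0.00144). T, or brachyury, the T-box factor of the primitive streak, was low in absolute terms, with 6.10, 7.56 and 6.98 CPM on day 3 and 2.19, 1.12 and 0.595 CPM on day 2, and differed by 2.40 (SE 0.51, adjusted p = 0.00281). In all 3 genes day 3 replicate 3 lay close to the other day 3 libraries. Sp5, a zinc finger repressor induced by Wnt, averaged 4.52 ± 1.31 CPM on day 3 and 1.90 ± 0.568 CPM on day 2 and did not pass (1.26, adjusted p = 0.0773), though it did with the GC trend removed (1.87, adjusted p = 0.0158). Ccnd1, cyclin D1, had 24.9, 27.2 and 20.9 CPM on day 3 and 50.9, 69.8 and 81.1 CPM on day 2 (−1.46, SE 0.25, adjusted p = 0.000943). Its exons overlap LTO1 on the other strand.

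T and Sp5 are textbook targets of Wnt signalling, and the 250 bases before their starts are shown because T carries the largest change of the Wnt list among the genes named. The sequences are RefSeq promoter windows on GRCm38.p6, 5′ to 3′ on the plus strand, T at chr17:8434173-8434422 and Sp5 at chr2:70474673-70474922. Capitals mark the 7-base word CTTTGNN in which each N is A or T, searched on both strands, a form of the site that TCF and LEF proteins bind.
T: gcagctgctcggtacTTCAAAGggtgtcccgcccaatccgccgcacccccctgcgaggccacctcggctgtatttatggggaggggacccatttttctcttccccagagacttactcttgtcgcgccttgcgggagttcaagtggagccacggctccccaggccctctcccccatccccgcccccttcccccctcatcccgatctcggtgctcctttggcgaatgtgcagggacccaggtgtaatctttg
Sp5: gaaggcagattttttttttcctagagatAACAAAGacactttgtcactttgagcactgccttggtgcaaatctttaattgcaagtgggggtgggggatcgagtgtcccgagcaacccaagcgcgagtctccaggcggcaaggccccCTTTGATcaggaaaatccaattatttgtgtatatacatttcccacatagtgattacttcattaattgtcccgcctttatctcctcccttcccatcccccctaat
The T window holds 1 match, 235 bases before the start on the minus strand. The Sp5 window holds 2, at 222 bases on the minus strand and at 104 bases on the plus strand. Over all 32851 RefSeq promoter windows of this length 14.8% hold at least 1 such word, and 5 of the 19 windows of the Wnt targets do. A match describes these letters and is not a site shown to be bound.

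Few genes of neural ectoderm were expressed highly enough to test. Of 8 tested, 4 were higher and 1 lower, against 12% and 13.5% of all genes. The counts were 2 and 1 without day 3 replicate 3 or without any single day 2 library. With GC and length trends removed they were 3 and 0. Sox11, an SRY-box factor of neural progenitors, had 69.0, 89.7 and 152 CPM on day 3 and 28.7, 19.8 and 23.7 CPM on day 2 (log2 fold change 2.10, SE 0.26, adjusted p = 0.000161). Neurod1, a neurogenic bHLH factor, had 4.41, 5.44 and 14.7 CPM on day 3 and 0.840, 0.843 and 0.893 CPM on day 2 (3.20, SE 0.59, adjusted p = 0.00133). Tubb3, the neuronal tubulin, averaged 1.46 ± 0.938 CPM on day 3 and 5.43 ± 0.393 CPM on day 2 and fell (−1.86, SE 0.46, adjusted p = 0.00635), a call lost with GC and length trends removed (−1.09, adjusted p = 0.0903). Summed over the defining markers Sox1, Pax6 and Tubb3, the neural level was 3.93 to 8.37 CPM on day 3 and 5.90 to 8.24 CPM on day 2. The sum joins opposite moves: Sox1 had 24 counts on day 3 and 9 on day 2, Pax6 39 and 18, and Tubb3 25 and 107. Of 6 tested mesendoderm genes 1 was higher, T, and 0 lower, with the same counts without day 3 replicate 3 and without day 2 replicate 3. Eomes, the other T-box factor, averaged 5.64 ± 1.72 CPM on day 3 and 3.95 ± 1.26 CPM on day 2 (0.52, adjusted p = 0.314).

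**Figure D3:**
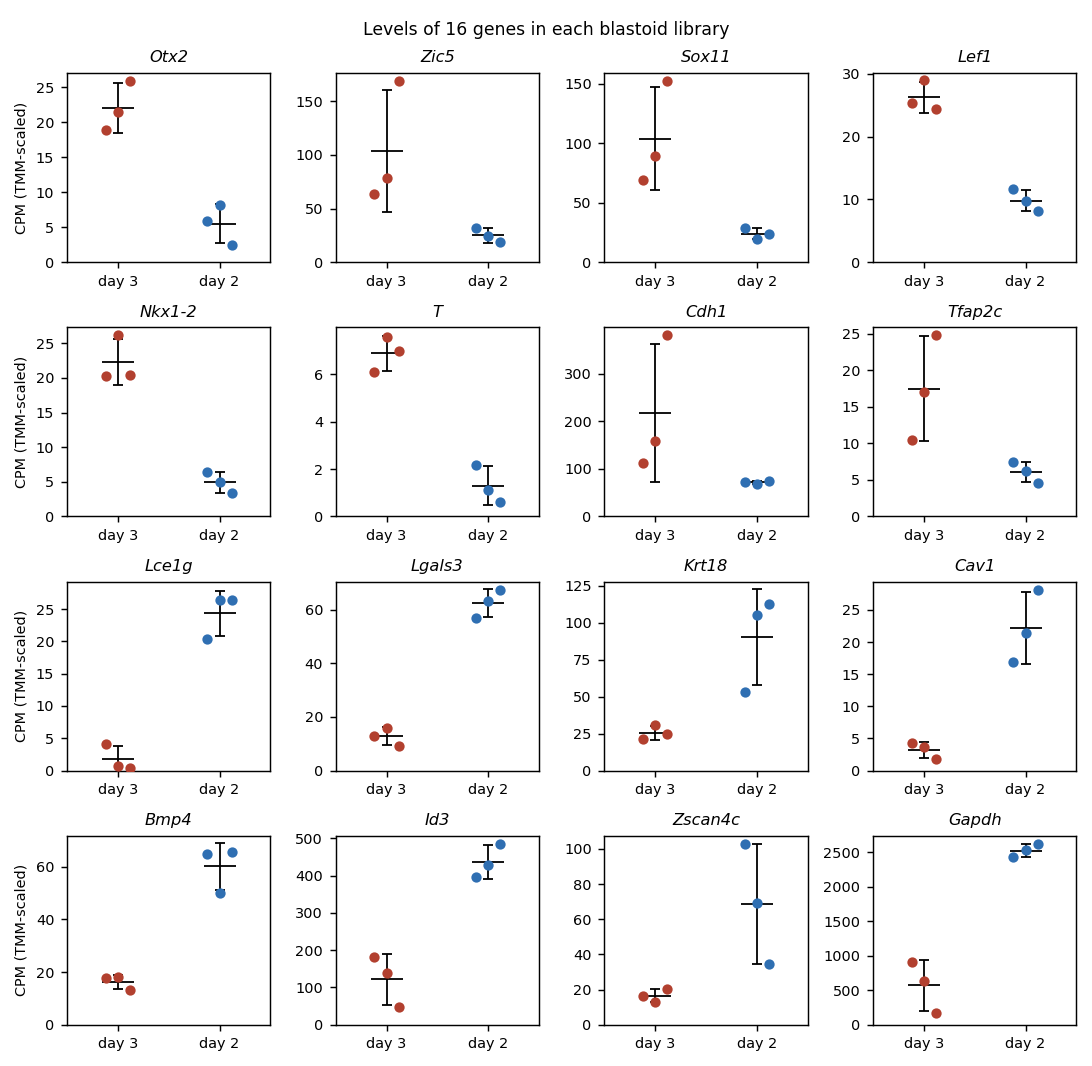
Levels of 16 genes in each library of day 3 (red, left) and day 2 (blue, right), in TMM-scaled CPM on linear axes from 0; points are libraries, and the horizontal line and bar give the mean and SD of 3. Otx2, Lef1, Nkx1-2 and T lie in narrow bands on day 3, all above day 2, whereas in Zic5, Sox11 and Cdh1 the third day 3 library is well above the other 2.

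In the trophectoderm list, the simple-epithelial keratin Krt18 fell and Tfap2c rose in every one of the 9 other settings. Of 33 tested genes, 3 were higher and 8 lower, against 12% and 13.5% of all genes, with a median of −0.19. The counts were 2 and 5 without day 3 replicate 3, 3 and 5 without day 2 replicate 3 and 1 and 4 without day 2 replicate 2. Tfap2c held among the higher and Krt18, Lgals3 and Bmp4 among the lower. Krt18, the type I keratin of simple epithelia, had 21.4, 30.5 and 24.4 CPM on day 3 and 53.3, 105 and 113 CPM on day 2 (−1.83, SE 0.30, adjusted p = 0.000748). Its partner Krt8 had 8.31, 12.7 and 11.4 CPM on day 3 and 17.8, 39.9 and 32.7 CPM on day 2 (−1.48, SE 0.32, adjusted p = 0.00295), a call lost with GC and length trends removed (−0.65, adjusted p = 0.102). Its exons overlap Gm36026 on the opposite strand. Lgals3, galectin-3, had 12.9, 16 and 9.31 CPM on day 3 and 57.0, 63.1 and 67.2 CPM on day 2 (−2.28, SE 0.26, adjusted p = 9.79e-05). All 3 were at their lowest day mean on day 3.

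Tfap2c, an AP-2 factor of trophectoderm and also of naive and germ cells, had 10.5, 17.1 and 24.9 CPM on day 3 and 7.4, 6.18 and 4.61 CPM on day 2 (1.52, SE 0.30, adjusted p = 0.00203). Gata3 had 6.44, 7.26 and 8.84 CPM on day 3 and 3.87, 2.11 and 2.98 CPM on day 2 (1.33, SE 0.35, adjusted p = 0.00954; adjusted p = 0.0603 without day 2 replicate 2). Fgfr2, the FGF receptor of trophectoderm, averaged 5.44 ± 2.03 CPM on day 3 and 3.08 ± 0.644 CPM on day 2 and did not pass (0.80, adjusted p = 0.0999). The defining factors Cdx2 and Elf5 were too low to test: Cdx2 had 5 counts over the 3 day 3 libraries and 0 over the 3 day 2 libraries, and Elf5 had 1 count on each day. The 6 defining markers together summed to 46.8 to 70.5 CPM on day 3 and 82.4 to 153 CPM on day 2. This sum also joins opposite moves. Krt8 had 182 counts on day 3 and 610 on day 2, and Krt18 433 and 1822. Gata3 had 124 and 58, and Tfap2c 282 and 119.

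E-cadherin and several junction genes rose, while other members of their list fell. Of 45 tested genes of epithelial junctions and fluid transport, 10 were higher and 7 lower, against 12% and 13.5% of all genes. The median was 0.23, and the counts were 7 and 3 without day 3 replicate 3 and 6 and 3 without day 2 replicate 3. Cdh1, Tjp1, Ppl, Pard3, Prkci and Esrp1 held among the higher, and 2 genes, Spint2 among them, held among the lower. Cdh1, E-cadherin, had 112, 159 and 382 CPM on day 3 and 71.4, 68.1 and 75.4 CPM on day 2 (1.6, SE 0.32, adjusted p = 0.00201). Without day 3 replicate 3 the log2 fold change was 0.92 (adjusted p = 0.00516). Tjp1, the tight junction scaffold ZO-1, averaged 86.6 ± 32.4 CPM on day 3 and 34.2 ± 5.21 CPM on day 2 (1.34, SE 0.29, adjusted p = 0.0029). Esrp1, a splicing regulator of epithelia, had 18.1, 25.2 and 24.9 CPM on day 3 and 8.24, 6.74 and 8.33 CPM on day 2 (1.55, SE 0.28, adjusted p = 0.0012). Atp1b1, a beta subunit of the sodium pump, averaged 29.0 ± 4.48 CPM on day 3 and 34.1 ± 7.74 CPM on day 2 (−0.24, adjusted p = 0.483).

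**Figure D4:**
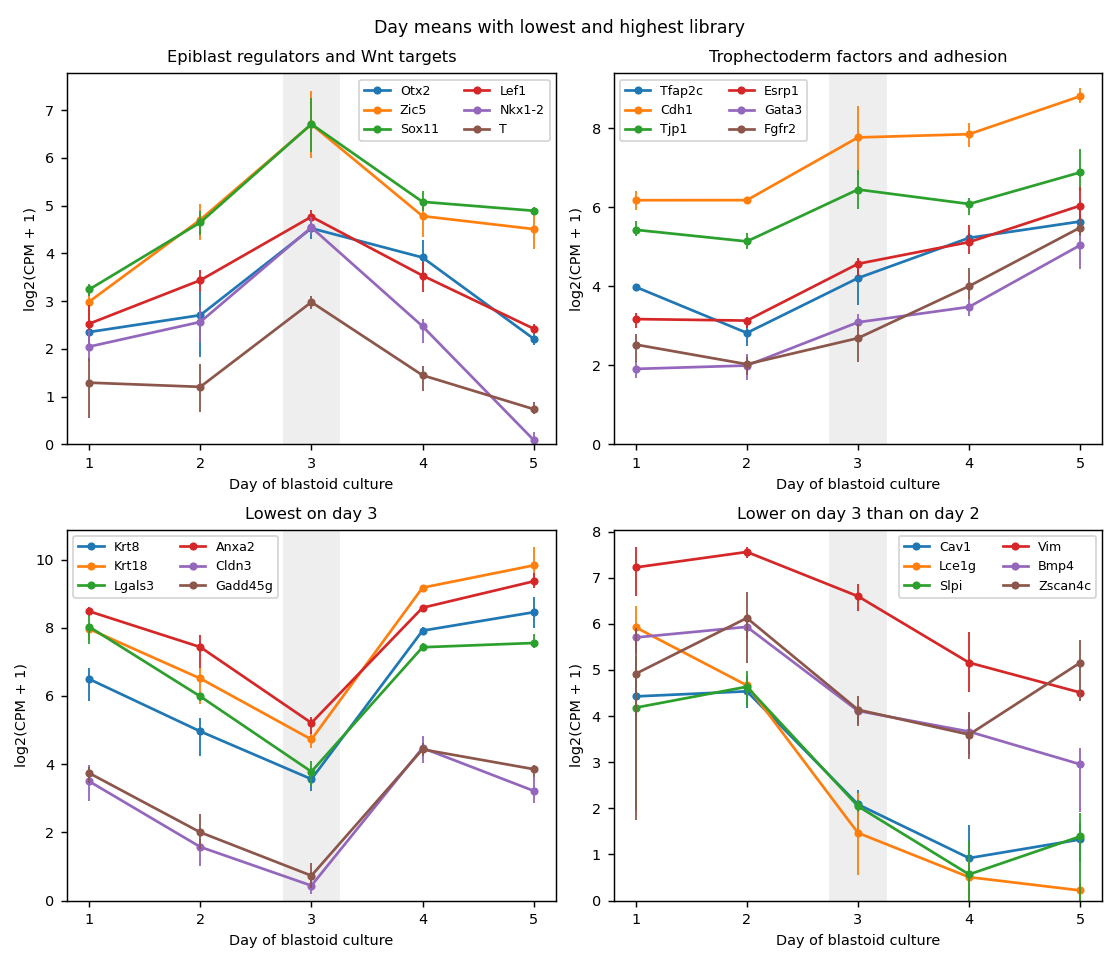
Day means of 24 genes over blastoid days 1 to 5 as log2(CPM + 1), with vertical lines from the lowest to the highest of the 3 libraries and day 3 shaded. The 6 genes at upper left have their highest mean on day 3, while Krt8, Krt18, Lgals3, Anxa2, Cldn3 and Gadd45g reach their lowest mean there and are higher again on day 4.

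Primitive endoderm is the third lineage of the blastocyst. Of 23 tested genes of primitive and visceral endoderm, 2 were higher and 4 lower, against 12% and 13.5% of all genes. The median was 0.12, and the counts were 1 and 4 without day 3 replicate 3 and 0 and 3 without day 2 replicate 3. With the GC trend removed they were 6 and 4, against 10.7% and 10.5% of all genes. With GC and length trends removed they were 5 and 2, against 9.44% and 9.72%. Gata6 averaged 3.64 ± 0.957 CPM on day 3 and 2.07 ± 0.918 CPM on day 2 (0.80, adjusted p = 0.183), and Pdgfra averaged 8.69 ± 4.37 CPM on day 3 and 14.1 ± 1.20 CPM on day 2 (−0.72, adjusted p = 0.234). Gata6 passed with the GC trend removed (1.31, adjusted p = 0.0407) and narrowly with GC and length trends removed (1.26, adjusted p = 0.04998). Gata4 and Sox17 had 8 and 9 counts over the day 3 libraries, 7 and 3 counts over the day 2 libraries, and were too low to test. Apoe, a lipid carrier also made by many other cells, had 79.5, 69.1 and 44.7 CPM on day 3 and 251, 331 and 331 CPM on day 2 (−2.24, SE 0.38, adjusted p = 0.000877). Hhex, a homeobox factor of early endoderm, averaged 9.27 ± 2.25 CPM on day 3 and 3.69 ± 1.27 CPM on day 2 (1.33, SE 0.33, adjusted p = 0.00699; adjusted p = 0.0549 without day 2 replicate 3).

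In the BMP and Nodal pathways the ligands Bmp4 and Gdf3 fell and the effector Smad4 rose. Bmp4, a ligand made by epiblast and trophectoderm, had 17.6, 18 and 13.3 CPM on day 3 and 64.7, 49.9 and 65.8 CPM on day 2 (−1.88, SE 0.31, adjusted p = 0.000692). Id3, an inhibitor of bHLH factors that BMP induces, had 181, 139 and 46.3 CPM on day 3 and 396, 429 and 485 CPM on day 2 (−1.84, SE 0.33, adjusted p = 0.00103). The whole BMP list counted 3 higher and 3 lower of 19 tested, against 12% and 13.5% of all genes. Its median was 0.24, and the counts were 1 and 2 without day 3 replicate 3 and 0 and 2 without day 2 replicate 3. Smad1, a BMP effector, averaged 19 ± 3.53 CPM on day 3 and 8.51 ± 2.45 CPM on day 2 (1.16, SE 0.34, adjusted p = 0.0178), a call lost without day 2 replicate 2, day 2 replicate 3 or day 3 replicate 2 (adjusted p = 0.0505, 0.106 and 0.0624). Gdf3, a ligand of the Nodal branch, had 98.3, 69.4 and 75.1 CPM on day 3 and 139, 209 and 216 CPM on day 2 (−1.22, SE 0.31, adjusted p = 0.00747). Smad4, the shared effector, had 71.4, 78.2 and 118 CPM on day 3 and 38.7, 36.8 and 34.2 CPM on day 2 (1.28, SE 0.26, adjusted p = 0.00202). Of 18 tested Nodal and activin genes, 4 were higher and 2 lower, with a median of −0.19 (2 and 3 without day 3 replicate 3, 2 and 2 without day 2 replicate 3).

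The largest rises by the naming rule (at least 10 CPM on the higher day and no overlap) were led by Hs6st2, Serinc5 and Ammecr1. Hs6st2, a heparan sulfate 6-O-sulfotransferase (chrX:51387212-51681856, GRCm38), had 14.9, 22.1 and 53 CPM on day 3 and 2.02, 2.95 and 2.83 CPM on day 2 (log2 fold change 3.5, SE 0.51, adjusted p = 0.000342). Day 3 replicate 3 was the highest library, and without it the log2 fold change was 2.82 (adjusted p = 0.000377). Fut9, the fucosyltransferase that makes the SSEA-1 epitope of mouse embryonic stem cells, had 70.9, 93.1 and 215 CPM on day 3 and 27.4, 29.2 and 21.7 CPM on day 2 (2.27, SE 0.34, adjusted p = 0.000405), and 1.36 with the GC trend removed. Nkx1-2, a homeobox gene of the caudal epiblast (chr7:132594878-132599637), had 20.3, 26.2 and 20.5 CPM on day 3 and 6.39, 4.92 and 3.42 CPM on day 2 (2.19, SE 0.33, adjusted p = 0.000494). Its exons overlap Gm16764 on the opposite strand. The other members of this set were Myb, Hnrnpa0, Ubqln2, Heca, Mex3b, Fbxl14 and Igip, with log2 fold changes from 2.18 to 2.30. Mex3b was the exception among the 12 in stability, with an adjusted p of 0.126 without day 3 replicate 3 and 0.0721 without day 2 replicate 3. The other 11 held.

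The largest falls by the same rule were led by Lce1g, Cyba and Efemp2. Lce1g, a late cornified envelope gene (chr3:92750148-92752338), had 4.07, 0.756 and 0.465 CPM on day 3 and 20.3, 26.4 and 26.3 CPM on day 2 (−3.73, SE 0.51, adjusted p = 0.000282). Cyba, the p22phox subunit of NADPH oxidase, had 1.53, 1.06 and 1.16 CPM on day 3 and 15.1, 9.41 and 11.9 CPM on day 2 (−3.26, SE 0.45, adjusted p = 0.000282). Cav1, caveolin-1, had 4.24, 3.63 and 1.86 CPM on day 3 and 17.0, 21.5 and 28.1 CPM on day 2 (−2.74, SE 0.48, adjusted p = 0.00102). Other members of this set, Efemp2, Slpi, Eno1b, Capg, Stub1, Dcxr, Zswim1 and Ints11, had log2 fold changes from −3.08 to −2.64. Slpi did not hold: its adjusted p was 0.0678 by DESeq2 and 0.122 without day 3 replicate 3, and it passed 0.05 in only 1 of the 6 fits that left out a library, the fit without day 2 replicate 1. Eno1b is a close copy of Eno1, and the counting could split reads between them.

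Genes of the 2-cell stage and of feeder cells were examined as lists of their own. Of 24 tested genes of the 2-cell-like state, 0 were higher and 2 lower, against 12% and 13.5% of all genes. The median log2 fold change was −1.42. The lower calls also numbered 2 without day 3 replicate 3 and without day 2 replicate 3, but Zscan4c was not among them there. They numbered 1 without day 2 replicate 1, day 2 replicate 2 or day 3 replicate 1. With the GC trend removed 0 were higher and 5 lower, and with GC and length trends removed 0 and 1. Zscan4c had 16.6, 12.7 and 20.5 CPM on day 3 and 103, 69.1 and 34.5 CPM on day 2 (−2.06, SE 0.70, adjusted p = 0.0440). All 3 day 3 libraries were below day 2, but the day 2 libraries ranged widely and the call was lost when any of the 6 libraries was left out (adjusted p 0.0526 to 0.153). Usp17lb, of another multi-copy family, held (−2.35, SE 0.62, adjusted p = 0.0101). Reads of such families can be split between near-identical copies. Of 28 tested feeder fibroblast genes, 2 were higher and 5 lower, with a median of −0.49 (1 and 3 without day 3 replicate 3, 1 and 4 without day 2 replicate 3), and Cav1 and S100a6 fell while Fstl1 rose among the held calls. The 7 defining fibroblast markers summed to 135 to 383 CPM on day 3 and 327 to 613 CPM on day 2, and the list of 30 summed to 861 to 1637 CPM on day 3 and 1395 to 1666 CPM on day 2, with Tagln at 0 on both days. The day 3 maximum of both sums was in replicate 3. Most of the 7-marker sum was Dcn, with 103, 119 and 292 CPM on day 3 and 259.5, 340 and 526 CPM on day 2. Of the 7 markers only Col1a1, at no more than 1.36 CPM on day 3 and 2.86 CPM on day 2, did not overlap between the days. The part that feeder cells take in the falls above was not tested.

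Proteasome genes were called in only 1 direction. Of 34 tested, 0 were higher and 16 lower, against 12% and 13.5% of all genes. The median was −0.68, and Psmd4, Psmd3, Psmc4 and Psmd1 held. The lower calls numbered 11 without day 3 replicate 3, 8 without day 2 replicate 3 and 7 without day 2 replicate 2, with 0 higher each time. Psmd4, the ubiquitin receptor of the regulatory particle, had 117, 98.7 and 57.0 CPM on day 3 and 195, 305 and 336 CPM on day 2 (−1.61, SE 0.28, adjusted p = 0.000918). With the GC trend removed 0 were higher and 12 lower, and with GC and length trends removed 0 and 8, with a median of −0.33. Lysosome and autophagy genes counted 4 higher and 14 lower of 37 (4 and 12 without day 3 replicate 3, 2 and 7 without day 2 replicate 3). With the GC trend removed they counted 4 and 9, and with GC and length trends removed 3 and 7. Ctsa, a lysosomal protective protease, had 11.7, 10.1 and 16.5 CPM on day 3 and 43.5, 66.9 and 75.3 CPM on day 2 (−2.29, SE 0.34, adjusted p = 0.000405). Rragd, a Rag GTPase that carries nutrient signals to mTORC1, moved the other way, with 78.3, 98.4 and 134 CPM on day 3 and 40.2, 32.2 and 34.1 CPM on day 2 (1.55, SE 0.25, adjusted p = 0.000679).

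Of 23 glycolysis genes, 3 were higher and 7 lower, with a median of −0.54 (3 and 3 without day 3 replicate 3, 2 and 3 without day 2 replicate 3). The counts were 4 and 3 with the GC trend removed (median −0.39). They were also 4 and 3 with GC and length trends removed (median −0.21). Gapdh had 906, 639.5 and 165 CPM on day 3 and 2430.4, 2533 and 2615 CPM on day 2 (−2.15, SE 0.42, adjusted p = 0.00175), and the lowest value was that of replicate 3, without which the log2 fold change was −1.71. Pdk1, the kinase that turns pyruvate away from the mitochondrion, averaged 142 ± 18.5 CPM on day 3 and 67.2 ± 5.38 CPM on day 2 (1.08, SE 0.19, adjusted p = 0.000912). Nuclear respiratory chain genes counted 9 higher and 17 lower of 76, against 12% and 13.5% of all genes (14 and 9 without day 3 replicate 3, 1 and 7 without day 2 replicate 3, 3 and 24 without day 3 replicate 1). Atp5d, the delta subunit of ATP synthase, had 27.1, 23.4 and 14.9 CPM on day 3 and 109, 115 and 98.8 CPM on day 2 (−2.29, SE 0.23, adjusted p = 2.03e-05), whereas Cox6c, a cytochrome oxidase subunit, averaged 2213 ± 42 CPM on day 3 and 944 ± 168 CPM on day 2 (1.23, SE 0.27, adjusted p = 0.00338). With the GC trend removed the respiratory counts were 9 and 8, and with GC and length trends removed 15 and 5. Of 13 mitochondrially encoded genes 5 were higher and 0 lower, but 0 were called without day 3 replicate 3, 1 without day 2 replicate 3 and 1 without day 2 replicate 2, and the counts were 0 and 1 with the GC trend removed and 2 and 0 with GC and length trends removed. mt-Nd4, for example, had 4829, 3998 and 12039 CPM on day 3 and 4489, 2567 and 2465 CPM on day 2 (1.13, adjusted p = 0.0353). Its adjusted p was 0.301 without day 3 replicate 3 and 0.510 with the GC trend removed (log2 fold change 0.28).

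Among cell-cycle genes, more were called lower than higher, which was also so over all genes (12% higher, 13.5% lower). In S phase 3 of 42 tested were higher and 10 lower, and in G2 and M phase 4 of 48 were higher and 10 lower, though the medians were −0.17 and 0.003. Without day 3 replicate 3 the S phase counts were 3 and 6 and the G2 and M phase counts 5 and 7. Over all genes the shares of that fit were 6.8% higher and 9.07% lower. Without day 2 replicate 3 the counts were 0 and 5 in S phase and 1 and 6 in G2 and M phase. Chaf1b, a subunit of the histone chaperone CAF-1, had 20.9, 14.8 and 5.12 CPM on day 3 and 44.4, 54.8 and 58.6 CPM on day 2 (−1.93, SE 0.33, adjusted p = 0.000887). Aurka, the spindle kinase Aurora A, had 92.6, 69.4 and 40.5 CPM on day 3 and 136, 166 and 184 CPM on day 2 (−1.26, SE 0.27, adjusted p = 0.00306). Of 22 G1 cyclins and CDK inhibitors 5 were higher and 7 lower (4 and 5 without day 3 replicate 3, 3 and 3 without day 2 replicate 3). Among them, cyclin D3 (Ccnd3) averaged 4.73 ± 1.08 CPM on day 3 and 14.8 ± 1.58 CPM on day 2 (−1.62, SE 0.35, adjusted p = 0.00279), and Mycn averaged 53 ± 5.02 CPM on day 3 and 21.7 ± 9.77 CPM on day 2 (1.29, SE 0.30, adjusted p = 0.00455). Of 31 p53 targets 5 were higher and 11 lower (4 and 11 without day 3 replicate 3, 3 and 8 without day 2 replicate 3). The cell-cycle inhibitor Cdkn1a had 62.2, 53.7 and 15.6 CPM on day 3 and 117, 107 and 108 CPM on day 2 (−1.33, SE 0.32, adjusted p = 0.0061), with AC167363.2 overlapping it on the other strand, while Mdm2 averaged 173 ± 19.3 CPM on day 3 and 191 ± 32.6 CPM on day 2 (−0.14, adjusted p = 0.640).

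Splicing factor genes counted 6 higher and 12 lower of 59, against 12% and 13.5% of all genes. The median was −0.07, and the counts were 10 and 8 without day 3 replicate 3 and 1 and 7 without day 2 replicate 3. Snrpa, the U1 snRNP A protein, had 32.9, 23.6 and 16.7 CPM on day 3 and 74.5, 76.6 and 63.8 CPM on day 2 (−1.55, SE 0.22, adjusted p = 0.000311). Sf3b5, a subunit of the complex that PlaB binds, averaged 73.3 ± 31.0 CPM on day 3 and 202 ± 8.11 CPM on day 2 (−1.46, SE 0.25, adjusted p = 0.000912), while Sf3b1, its largest subunit, averaged 643 ± 112 CPM on day 3 and 674 ± 61.6 CPM on day 2 (−0.07, adjusted p = 0.841). Tra2a, a splicing regulator, had 183, 233 and 524 CPM on day 3 and 103, 82.5 and 69.3 CPM on day 2 (1.88, SE 0.34, adjusted p = 0.00113). Cytosolic ribosomal protein genes depended on the library: of 80 tested, 12 were higher and 5 lower, but without day 3 replicate 3 the counts were 25 and 4, without day 2 replicate 3 they were 0 and 3, without day 3 replicate 1 they were 10 and 14, and with GC and length trends removed 27 and 2.

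**Figure D5:**
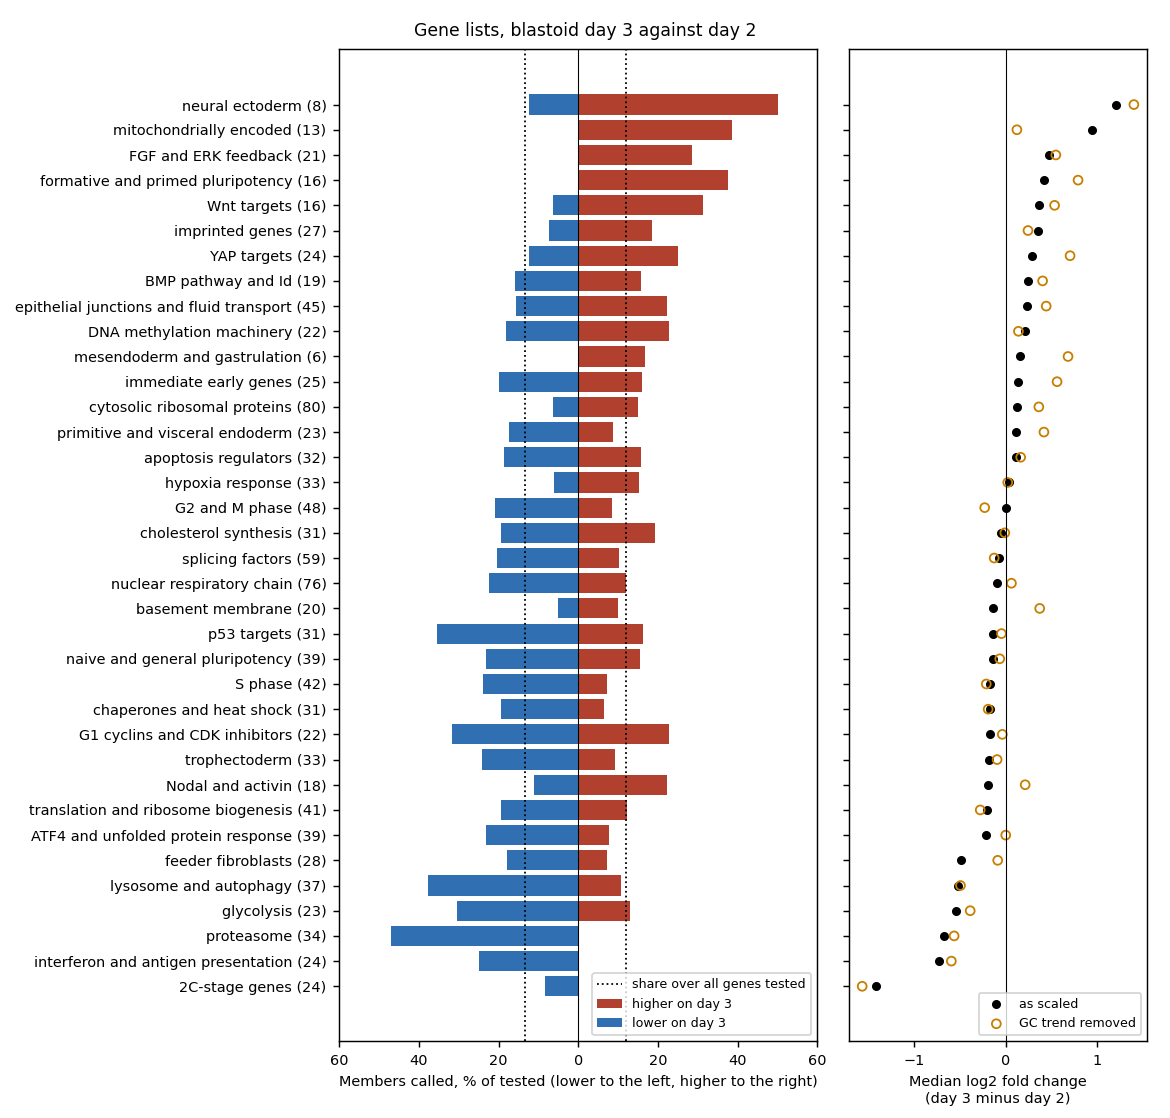
Left, the percentage of tested members of each of 36 gene lists that were lower (blue, to the left) or higher (red, to the right) on day 3 than on day 2, with the number tested in brackets and dotted lines at the share over all genes tested (13.5% lower, 12% higher). Right, the median log2 fold change of each list as scaled (black) and with the GC trend removed (orange); the mitochondrially encoded list moves from 0.94 to 0.12.

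Further lists are given as their higher and lower counts, followed in brackets by those without day 3 replicate 3 and then those without day 2 replicate 3. The shares over all genes were 12% higher and 13.5% lower, and 6.8% and 9.07% without day 3 replicate 3. Without day 2 replicate 3 the calls over all genes numbered 739 and 1144. Of 24 YAP targets 6 and 3 were called (3 and 3, 4 and 3), of 32 apoptosis regulators 5 and 6 (6 and 3, 3 and 2), and of 39 genes of the ATF4 and unfolded protein responses 3 and 9 (1 and 6, 1 and 4). The 25 immediate early genes counted 4 and 5 (1 and 5, 2 and 4), and the 33 hypoxia genes 5 and 2 (5 and 2, 2 and 1). Genes of cholesterol and fatty acid synthesis counted 6 and 6 of 31 (4 and 3, 3 and 3), chaperones 2 and 6 of 31 (3 and 3, 0 and 2), and DNA methylation genes 5 and 4 of 22 (5 and 4, 2 and 4). Imprinted genes counted 5 and 2 of 27 (2 and 2, 2 and 1), and translation genes 5 and 8 of 41 (3 and 7, 1 and 4). Interferon and antigen presentation genes counted 0 and 6 of 24 (0 and 3, 0 and 1), with 1 lower call also without day 3 replicate 2. Basement membrane genes counted 2 and 1 of 20 (1 and 1, 1 and 1), and 6 and 1 with the GC trend removed. In that setting YAP targets counted 10 and 2, and genes of the ATF4 and unfolded protein responses 4 and 7. Cholesterol and fatty acid synthesis genes counted 9 and 2 there. With GC and length trends removed, YAP targets counted 9 and 1, ATF4 and unfolded protein response genes 4 and 3, and cholesterol genes 7 and 1. Hspb1, a small heat shock protein, had 126, 87.4 and 23 CPM on day 3 and 458, 392 and 427 CPM on day 2 (−2.43, SE 0.37, adjusted p = 0.000494). Scd1, a fatty acid desaturase, had 116, 125 and 244 CPM on day 3 and 58.0, 55.4 and 54.9 CPM on day 2 (1.53, SE 0.25, adjusted p = 0.000679). Eif4ebp1, a repressor of cap-dependent translation, had 127, 105 and 42.3 CPM on day 3 and 358, 309.9 and 315 CPM on day 2 (−1.84, SE 0.31, adjusted p = 0.000811).

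Day 3 was also set against its neighbours on either side. In the contrast of day 3 with the mean of days 2 and 4, which shares its day 2 and day 3 libraries with the comparison above, 2259 genes were higher (14.9%) and 2313 lower (15.3%); with total-count scaling the split was 1698 and 2738, and with the GC trend removed it was 1650 (10.9%) and 1466 (9.7%). By the naming rule (6 genes in each direction) the largest rises of this contrast were Hs6st2, Jag1, Nkx1-2, Lpar4, Bche and Aspn, and the largest falls Cldn3, Cyba, Gadd45g, Stard10, Dkkl1 and Dcxr. Each of these 12 kept its call in this contrast with the GC trend removed, with GC and length trends removed and without day 3 replicate 3. Against day 2 alone, Bche lost its call with the GC trend removed (log2 fold change 0.46, adjusted p = 0.383) and without day 3 replicate 3 (0.50, adjusted p = 0.418), having had 10.5, 13.5 and 33.3 CPM on day 3 and 8.74, 7.31 and 9.52 CPM on day 2. Aspn lost it without day 3 replicate 3 (1.21, adjusted p = 0.0501). Nkx1-2 averaged 3.13, 4.91, 22.3, 4.55 and 0.0647 CPM on days 1 to 5 (log2 difference 2.24, SE 0.27, adjusted p = 2.08e-05). Jag1, a Notch ligand, averaged 2.55, 2.68, 11.6, 1.61 and 3.49 CPM on days 1 to 5 (2.46, SE 0.39, adjusted p = 0.000204). Cldn3, a tight junction claudin, averaged 10.3, 1.97, 0.354, 21.2 and 8.31 CPM over the same days (−4.12, SE 0.54, adjusted p = 4.98e-05). Krt18 averaged 249, 90.3, 25.4, 578 and 909 CPM (−3.16, SE 0.30, adjusted p = 1.63e-06). Of all 4572 calls of this contrast, 2301 were kept with the GC trend removed and 2492 without day 3 replicate 3. List counts of the contrast are given for the main fit only. Because the contrast takes the mean of days 2 and 4, a called list member need not differ from each of them. Of the trophectoderm list 1 gene was higher and 16 were lower in this contrast, of the formative list 8 and 0, and of the glycolysis genes 2 and 14. The list of epithelial junctions and fluid transport counted 3 higher and 14 lower, with a median of −0.30, against 0.23 in the comparison with day 2. The feeder fibroblast list counted 8 higher and 1 lower, with a median of 0.73, against a median of −0.49 in the comparison with day 2. Its part in this contrast was not tested.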

How the data were processed

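The authors deposited a table of raw read counts, 1 row for each gene symbol and 1 column for each of the 15 blastoid libraries. The submitters' processing notes name mm10, STAR 2.7.10b and HTSeq 0.13.5; no source used here gives the annotation or the strand setting. Columns were matched to samples by title. The 4 libraries of the 2D culture were not used here.

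Genes passing edgeR's filter (minimum count 10, minimum total 15) were fitted with edgeR 4.0.16 (R 4.3.3): TMM scaling, robust quasi-likelihood F-test, all 15 libraries, day as factor, Benjamini-Hochberg adjustment over 15121 genes, threshold 0.05. The biological coefficient of variation was 0.258. CPM are TMM-scaled, SD is over 3 libraries and SE is the log2 fold change divided by the square root of F. GC content, length and coordinates came from GENCODE M21 on GRCm38; 99.3% of tested genes had a GC value. The GC trend was removed by loess offsets per library (span 0.4). limma 3.58.1 and DESeq2 1.42.0 served as alternatives. The fit was tested on simulated counts with planted changes and equal spread. Those counts held no GC trend and no outlying library, and the test judged only the recovery and size of the planted changes.

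Named genes were the 12 largest changes in each direction past the threshold (at least 10 CPM on the higher day, no overlap, no numbered gene models), at most 4 genes per list by smallest adjusted p, a fixed set, and 6 genes in each direction for the contrast with the mean of days 2 and 4; others are named without values because they were called, after their values were seen. A few genes that the rule picked are not reported here. The members and lists were chosen with earlier results of these data known. The labels do not state that replicate numbers pair cultures, so no replicate was paired. Same-numbered libraries of the 2 days did not deviate together, but 3 libraries on each day are too few to decide the question.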

Additional observations from a re-analysis of the deposited data

How the results depend on the processing

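None of the 3866 calls of day 3 against day 2 was called in the opposite direction under the alternatives run. Of the 4572 calls against the mean of days 2 and 4, 1 was, with GC and length trends removed. The following counts of calls moved by over 1.5 times from 1821 higher and 2045 lower genes: 1185 and 1294 in a fit of only the 6 libraries of days 2 and 3, 990 and 1114 with the GC trend removed and day 3 replicate 3 left out, and 1058 higher at a log2 fold change of at least 1. Leaving out each library of days 2 and 3 in turn gave 739 to 2202 higher and 1144 to 2467 lower genes, lowest without day 2 replicate 3. For the contrast with the mean of days 2 and 4 (2259 higher, 2313 lower), the counts that moved were 1466 lower with the GC trend removed, 1407 lower with GC and length trends removed (an alternative added after the data were seen), 948 and 989 with the GC trend removed and day 3 replicate 3 left out, and 1010 higher at a log2 fold change of at least 1; leaving out 1 library gave 1189 to 2452 higher and 1595 to 2526 lower. The cause of these moves was not tested. Some of these fits also held fewer libraries, and the effect of that was not tested separately. Correlations of deviations between same-numbered libraries of days 2 and 3 were −0.236, 0.0025 and −0.199. Those between differently numbered libraries ran from −0.0728 to 0.227. With 3 libraries on each day these values cannot decide whether replicate numbers pair cultures. With the replicate number as a block, 1484 genes were higher and 1729 lower (1861 and 2010 for the contrast with both neighbours); with block and GC trend together 1272 were lower, and 1397 higher and 1237 lower in the contrast with both neighbours. Scaling by RLE, by total counts or without mitochondrially encoded genes, limma-voom, DESeq2, other count filters and thinning every library to the smallest total kept both day 3 against day 2 counts within 1.5 times. The difference in mitochondrial share was 3.09 percentage points over all libraries and 0.299 without day 3 replicate 3. Genes of few counts, such as Cdx2, Elf5, Gata4 and Sox17, could not be tested at this depth.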
